A study of Mus musculus with 2 samples.

Results

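The genes described here are Lta, Ltb, Tnf, Tnfsf11, Tnfsf14 and Tnfsf10, which encode ligands of the tumour necrosis factor (TNF) superfamily, with the lymphotoxin receptor gene Ltbr and the cytokine gene Lif. They were chosen by symbol, and all 8 were found among the 31053 genes of both droplet-based single-cell RNA libraries. The Zfp36-/- library came from mice that lack Zfp36, which encodes the RNA-binding protein tristetraprolin (TTP), and the WT library from wild-type mice, all on C57BL/6. No age, sex or treatment was given for either genotype. From each genotype, live CD45+ cells of the small-intestinal lamina propria were sorted as innate lymphoid cells (ILCs). The gate required CD90.2 and CD127 and left out cells with TCRβ, CD3 or other lineage markers. Cells of 4 mice per genotype were pooled before encapsulation, so there was 1 library per genotype and no replicate. The differences below therefore describe 2 pools, with no test between genotypes. Each interval covers the counting error of unique molecular identifiers (UMIs) or of cells and not the variation between mice.

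Lymphotoxin alpha can be secreted as a homotrimer that binds TNF receptors, or it can join lymphotoxin beta, encoded by Ltb, in a membrane-bound heterotrimer that binds the receptor encoded by Ltbr on stromal and myeloid cells. Lymphoid tissue inducer (LTi) cells, a kind of group 3 ILC (ILC3), use this heterotrimer and RANK ligand, encoded by Tnfsf11, to induce lymph nodes and the lymphoid follicles of the gut. TTP binds AU-rich elements in the 3′ untranslated region (3′ UTR) of mRNAs and promotes their deadenylation and decay, and Tnf is its classical target in mouse macrophages.

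The 3′ UTRs of these genes differ in how often they hold TATTTAT, the core of the TTP element, read on the transcript strand with overlapping matches counted. In the longest annotated 3′ UTR of each gene (GENCODE M21, mm10), Tnf had 8 matches in 764 nucleotides, Lif 5 in 3180, Lta 3 in 572 and Tnfsf10 3 in 3998. Ltbr, Tnfsf11 and Tnfsf14 had 1 match each, and Ltb had 0 in 174 nucleotides. Of 21037 mouse genes with an annotated 3′ UTR, 27.58% had at least 1 match, 4.14% at least 3 and 0.851% at least 5. The windows below show the densest stretch of Tnf, the overlapping pair of Lta, an isolated pair of sites in Lif and in Tnfsf10, and the lone sites of Tnfsf11 and Tnfsf14. Capitals mark TATTTAT, and each window is written 5′ to 3′ on the transcript strand.
Tnf, chr17:35199678-35199706, minus strand: TATTTATTATTTATTTATTATTTATTTAT
Lta, chr17:35203396-35203424, minus strand: aaaagttaagtTATTTATTTATagagaat
Lif, chr11:4270469-4270497, plus strand: gcacagctgtcTATTTATtactatgtcct
Lif, chr11:4270486-4270514, plus strand: ttactatgtccTATTTATattaacttatt
Tnfsf10, chr3:27339343-27339371, plus strand: attgttttaccTATTTATcaTATTTATca
Tnfsf11, chr14:78277646-78277674, minus strand: tctgtcaggagTATTTATgcaattattga
Tnfsf14, chr17:57190252-57190280, minus strand: tcaagctggggTATTTATgcttctgatgc
A match describes the letters only and is not shown here to be a bound site. Lta, Tnf and Ltb are neighbours within 10913 bp of chromosome 17, with Lta and Tnf on the minus strand and Ltb on the plus strand. They lie at chr17:35203165-35205351 (Lta), chr17:35199381-35202007 (Tnf) and chr17:35194439-35196320 (Ltb). Tnfsf14 is on the same chromosome at chr17:57189492-57194177, Ltbr at chr6:125306571-125313885, Tnfsf11 at chr14:78277445-78308043, Tnfsf10 at chr3:27317028-27342427 and Lif at chr11:4257557-4272514. The gene bodies of Lta and Tnf lie 1157 bp apart and those of Tnf and Ltb 3060 bp apart, so none of these 3 genes overlaps another. Lta overlaps the microRNA gene Mir6974 and Ltb overlaps Mir6973a, each on the same strand, which 3′ tags would not separate.

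The Zfp36-/- library held 3522 barcodes and 27733804 UMIs, and the WT library 3593 barcodes and 24721524 UMIs. After filtering, 3334 Zfp36-/- cells and 3360 WT cells remained, with median depths of 5336.5 and 5292.5 UMIs. The 2 libraries shared 2 barcodes. Y-linked UMIs without Xist were found in 448 Zfp36-/- cells (13.4%) and 0 WT cells. The summed level of Zfp36 itself was lower in the Zfp36-/- library in every class, for example 315 CPM (UMIs of the gene per 1000000 UMIs of the class) in Zfp36-/- NCR+ ILC3 against 1410 CPM in WT NCR+ ILC3, and 330 CPM in Zfp36-/- ILC2 against 733 CPM in WT ILC2. The labels do not say whether the counted 3′ end lies in the deleted part of the gene, so the UMIs that remain do not show functional transcript.

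Cells were gated by the number of distinct marker genes with a UMI. The LTi-like ILC3 gate held 275 Zfp36-/- and 248 WT cells, and the gate of ILC3 with natural cytotoxicity receptor genes (NCR+ ILC3) held 362 and 359 cells. Further gates held 1235 Zfp36-/- and 664 WT group 2 ILCs (ILC2), and 162 Zfp36-/- and 132 WT cells of the ILC1 and natural killer type (ILC1/NK). Il23r, a receptor gene among the ILC3 markers, had a UMI in 68.7% of Zfp36-/- and 58.5% of WT LTi-like cells. Ccr6 had one in 64.7% of Zfp36-/- and 86.3% of WT LTi-like cells, and Nrp1 in 72.7% of Zfp36-/- and 63.3% of WT cells. Ncr1 was found in 80.7% of Zfp36-/- and 87.2% of WT NCR+ ILC3, Klrk1 in 63.0% and 89.4%, and Tbx21 in 17.7% and 34.0%. Il17rb was found in 93.2% of Zfp36-/- and 87.3% of WT ILC2, and Klrg1 in 74.0% and 82.1%. The gates thus held cells with unlike marker shares, and the part of this in the ratios was not tested. Of the NCR+ ILC3 gate, 84 Zfp36-/- and 47 WT cells fell in cluster 0, named LTi-like ILC3 by its markers. A further 14 Zfp36-/- and 24 WT cells of that gate fell in cluster 6, named ILC1/NK. Of the ILC1/NK gate, 52 Zfp36-/- and 18 WT cells fell in a cluster named ILC2 by its markers. The myeloid gate held 376 Zfp36-/- and 98 WT cells with median depths of 20074 and 8436.5 UMIs. Of these, 6 Zfp36-/- and 9 WT cells fell in cluster 0, named LTi-like ILC3, and 2 and 7 in cluster 2, named NCR+ ILC3. A further 1 Zfp36-/- and 4 WT cells fell in cluster 6, named ILC1/NK, and 0 and 4 in cluster 4, named ILC2. The WT myeloid gate thus held a larger share of cells from lymphoid clusters. Their part in the myeloid ratios was not tested. The T cell gate held 77 Zfp36-/- and 1199 WT cells, of which 7 Zfp36-/- and 910 WT cells lay in clusters named as T cells. Trac, a defining T cell receptor gene, had a UMI in 26.0% of gated Zfp36-/- and 90.4% of gated WT cells, so the gate does not hold the same cells in both libraries and no ratio is given for it. A sum over the cells of a class cannot separate fewer expressing cells from less RNA per cell. Shares at equal depth are given beside the sums, but a share also falls when every cell holds less RNA of a gene.

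**Figure D1:**
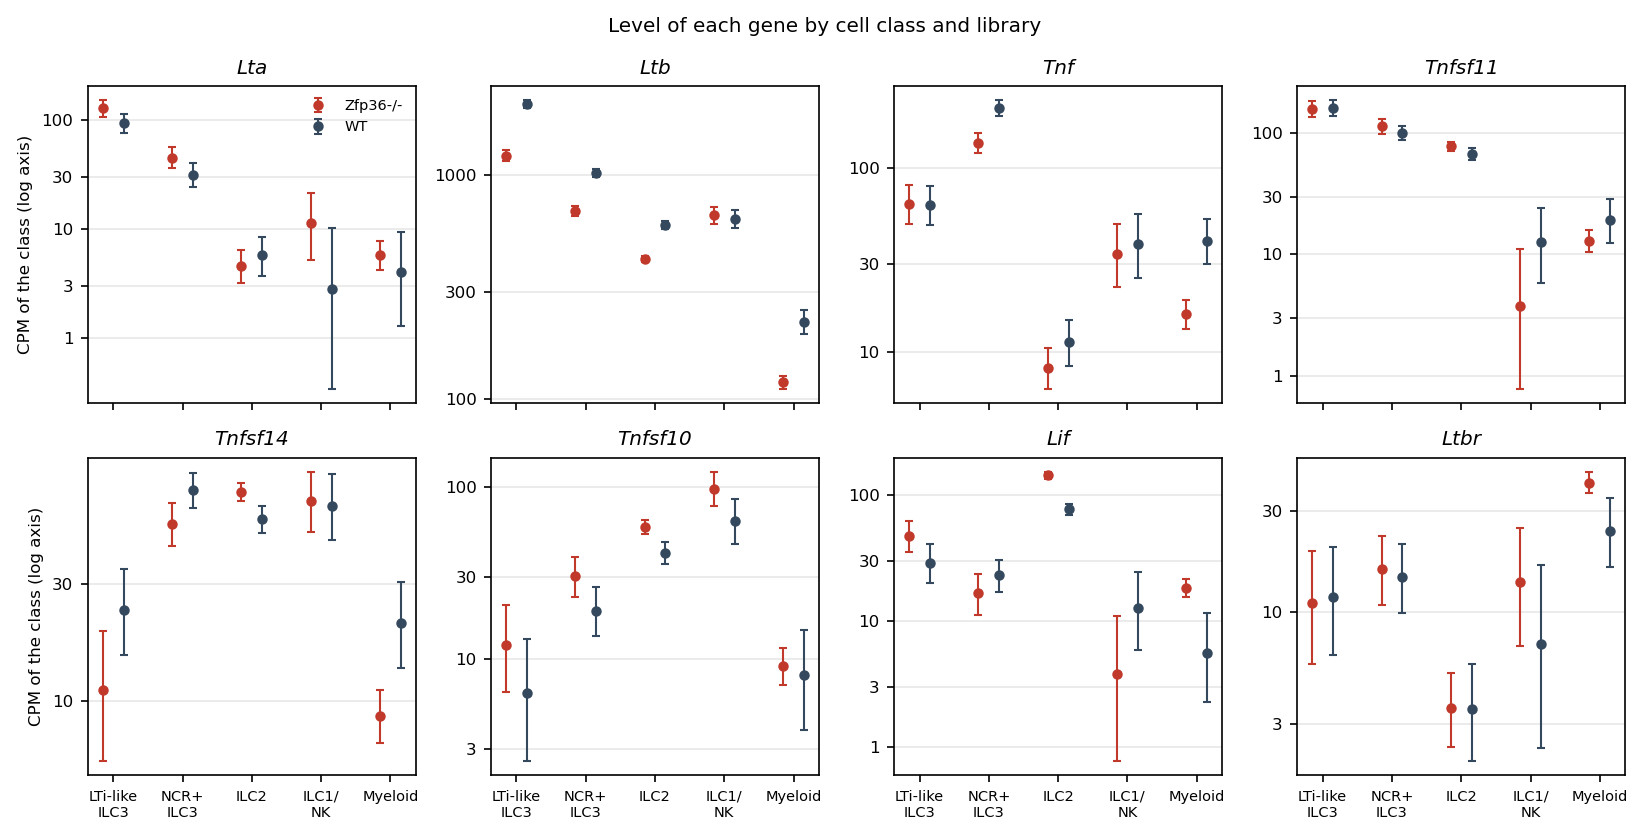
Level of the 8 genes as CPM of the summed UMIs of a class (log axis), with Zfp36-/- points left of WT points and 95% Poisson intervals. Ltb is lower in the Zfp36-/- library in every class shown except ILC1/NK, and Lif is highest in ILC2, at 144 CPM in Zfp36-/- and 77.2 CPM in WT cells.

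Ltb, which encodes the membrane-anchored partner of lymphotoxin, was lower in Zfp36-/- than in WT cells of both ILC3 subsets and of ILC2, and about equal in ILC1/NK cells. LTi-like ILC3 had 1226 CPM of Ltb in the Zfp36-/- library (1327 UMIs), against 2074 CPM in the WT library (2283 UMIs). The log2 ratio of Zfp36-/- over WT was -0.76 (95% interval -0.86 to -0.66), which is 1.69-fold lower. In NCR+ ILC3, Ltb was at 693 CPM in Zfp36-/- and 1024 CPM in WT cells, with a log2 ratio of -0.56 (-0.67 to -0.46). ILC3 that met neither subset gate had 901 CPM of Ltb in Zfp36-/- and 1814 CPM in WT cells. In ILC2 the level was 423 CPM in Zfp36-/- and 601 CPM in WT cells, with a log2 ratio of -0.51 (-0.58 to -0.43). ILC1/NK cells had 662 CPM in Zfp36-/- and 638 CPM in WT cells, a log2 ratio of 0.05 (-0.13 to 0.24). With Leiden clusters as classes, the ILC1/NK ratio was 0.39. Myeloid cells had 119 CPM of Ltb in Zfp36-/- and 222 CPM in WT cells, a ratio of -0.90 (-1.10 to -0.70), which was -0.08 (-0.42 to 0.28) within cluster 8, which carries the C1q genes, and -0.70 (-1.21 to -0.16) within cluster 9, which does not. The median log2 ratio over all genes with at least 50 UMIs in a class was above 0 in every gate, between 0.13 and 0.27, so set against that median the Ltb ratio was -0.92 in LTi-like ILC3 and -0.71 in NCR+ ILC3.

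At equal depth, with every cell thinned to 2000 UMIs, Ltb was found in 217 of 269 Zfp36-/- LTi-like ILC3 (80.7%, exact binomial 95% interval 75.4 to 85.2), against 237 of 244 WT cells (97.1%, 94.2 to 98.8). Without thinning the shares were 88.0% in Zfp36-/- and 98.0% in WT cells. The number of Ltb UMIs per thinned cell differed as well, with a median of 2 in Zfp36-/- and 4 in WT LTi-like ILC3. At least 5 UMIs were found in 44 Zfp36-/- cells (16.4%) and 95 WT cells (38.9%). Among cells with any Ltb UMI, the mean was 3.12 UMIs in Zfp36-/- and 4.48 in WT cells, so both the share of positive cells and the count per positive cell were lower. Fewer expressing cells and less Ltb RNA in every cell cannot be told apart from these values. In NCR+ ILC3 the thinned share was 65.0% in Zfp36-/- and 73.8% in WT cells, and in ILC2 it was 48.4% in Zfp36-/- and 58.0% in WT cells. Plasma cells, which should lack most of these transcripts, gave a background share of 0.794% in Zfp36-/- and 5.97% in WT for Ltb after the same thinning, from 126 and 67 cells with median depths of 31580 and 39518 UMIs. Thinning took a larger part of the UMIs from these deep cells than from ILCs. This share may therefore lie below the background of ILCs, which was not measured. Without thinning, plasma cells had 5.77 CPM of Ltb in Zfp36-/- and 18.5 CPM in WT. The whole B and plasma cell gate had 29.7 CPM in Zfp36-/- and 77.9 CPM in WT, a log2 ratio of -1.39 (-1.71 to -1.07). The part of a lower Ltb background in the ILC ratios was not tested.

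**Figure D2:**
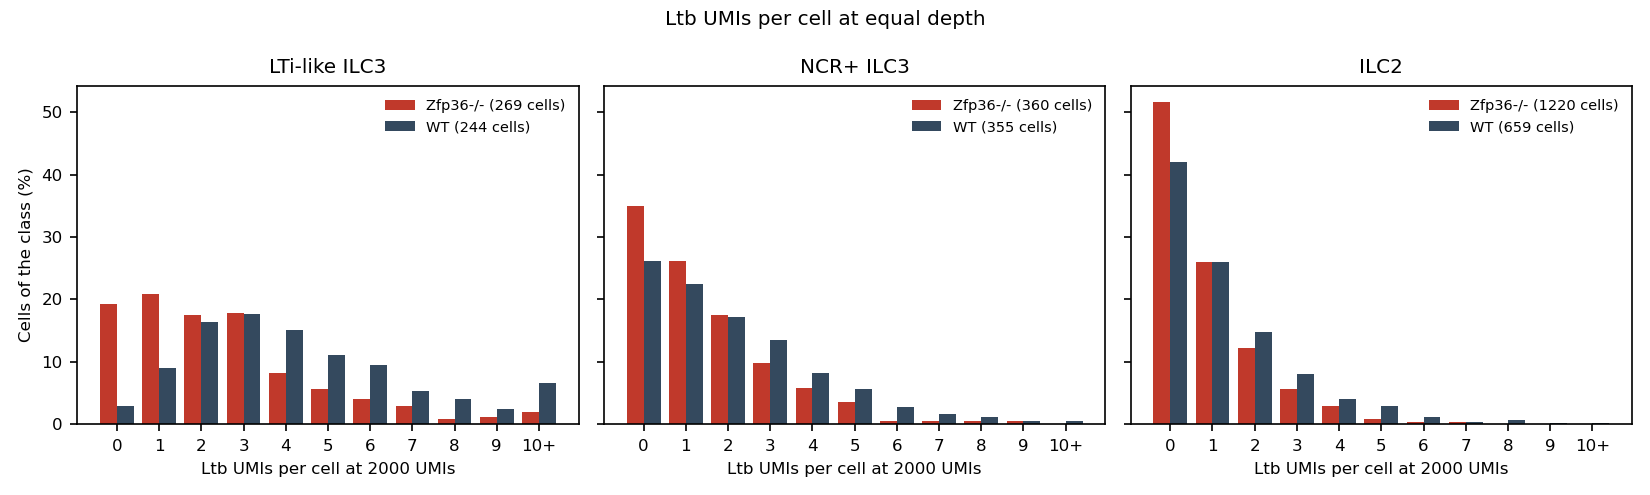
Share of cells (%) by number of Ltb UMIs after thinning each cell to 2000 UMIs, Zfp36-/- bars left of WT bars. In LTi-like ILC3, 19.3% of Zfp36-/- and 2.87% of WT cells had no Ltb UMI.

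Within clusters the Ltb difference was uneven among ILC2. Gated ILC3 of cluster 0, which carries the LTi markers, had 1215 CPM in Zfp36-/- and 2088 CPM in WT cells, a log2 ratio of -0.78. Those of cluster 2, which carries the NCR markers, had 568 CPM in Zfp36-/- and 913 CPM in WT cells, a ratio of -0.68. Gated ILC2 of cluster 1, whose markers do not include Il1rl1 or Arg1, had 420 CPM in Zfp36-/- and 676 CPM in WT cells, a ratio of -0.69 (-0.79 to -0.59). The ratio was -0.23 (-0.50 to 0.03) in ILC2 of cluster 4 and -0.12 (-0.27 to 0.03) in ILC2 of cluster 5, whose markers include Il1rl1 and Arg1. Cluster 1 held 813 of the 1235 gated Zfp36-/- ILC2 and 332 of the 664 gated WT ILC2. The difference between clusters was not tested.

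Lta, the soluble lymphotoxin subunit, had its highest level in LTi-like ILC3, with 127 CPM in Zfp36-/- (137 UMIs) and 92.7 CPM in WT cells (102 UMIs). ILC3 that met neither subset gate had 69.0 CPM in Zfp36-/- and 76.8 CPM in WT cells, and in WT the counting intervals of these 2 classes overlapped. NCR+ ILC3 had 44.9 CPM in Zfp36-/- and 31.4 CPM in WT cells. ILC1/NK cells had 9 UMIs in Zfp36-/- and 2 in WT, myeloid cells had 5.77 CPM in Zfp36-/- and 4.01 CPM in WT cells, and ILC2 had 4.61 CPM in Zfp36-/- and 5.73 CPM in WT cells. The counting intervals of these last classes overlapped, so they have no order. Within a library, LTi-like over NCR+ ILC3 was a log2 difference of 1.49 in Zfp36-/- and 1.56 in WT cells. Between libraries the log2 ratio of LTi-like ILC3 was 0.45 (0.07 to 0.83), and that of NCR+ ILC3 was 0.52 (0.03 to 1.01). This direction rested on few cells. Without the 5% of cells richest in Lta the ratio was -0.06 in LTi-like and -0.43 in NCR+ ILC3, and with gates made on thinned cells it was -0.09 in LTi-like and 0.03 in NCR+ ILC3. With gates of 3 markers it was 1.37 in NCR+ ILC3. The share of LTi-like cells with an Lta UMI at equal depth was 13.0% (9.23 to 17.6) in Zfp36-/- and 14.3% (10.2 to 19.4) in WT cells, so no difference in the share was detectable at this depth. Plasma cells had no Lta UMI after thinning, which allows a share of up to 2.38% in Zfp36-/- and 4.48% in WT, with the limit of depth given for Ltb.

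Ltbr, the receptor of the lymphotoxin heterotrimer, was highest in myeloid cells, at 40.6 CPM in Zfp36-/- (303 UMIs) and 24.1 CPM in WT cells (30 UMIs). In WT its counting interval overlapped those of both ILC3 subsets, of ILC3 without a subset and of ILC1/NK cells, so these have no order there. The log2 ratio was 0.75 (0.21 to 1.35). It was -0.12 within cluster 8, which carries C1qa, C1qb and C1qc, and 0.57 (-0.15 to 1.37) within cluster 9, which carries Cst3 and Itgax but not the C1q genes. Cluster 8 held 173 of the gated Zfp36-/- and 37 of the gated WT myeloid cells, and cluster 9 held 176 Zfp36-/- and 24 WT cells. In the ILC gates Ltbr lay between 3.56 and 20.9 CPM in Zfp36-/- and between 3.53 and 14.7 CPM in WT cells. Ltbr transcripts of stromal cells were outside the sort.

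Tnf differed between the ILC3 subsets and between the libraries. NCR+ ILC3 had 137 CPM in Zfp36-/- (256 UMIs), against 212 CPM in WT cells (431 UMIs), a log2 ratio of -0.63 (-0.86 to -0.40) and 1.54-fold lower. At equal depth a Tnf UMI was found in 20.3% (16.2 to 24.8) of Zfp36-/- and 31.3% (26.5 to 36.4) of WT NCR+ ILC3. Without thinning these shares were 34.3% and 51.0%. LTi-like ILC3 had 63.7 CPM in Zfp36-/- and 62.7 CPM in WT cells, 69 UMIs in each, and the log2 ratio was 0.02 (-0.48 to 0.53). With Leiden clusters as classes, the LTi-like ratio was 0.57 (0.22 to 0.92). ILC1/NK cells had 34.0 CPM in Zfp36-/- and 38.4 CPM in WT cells, and ILC2 had 8.17 CPM in Zfp36-/- and 11.2 CPM in WT cells with a ratio of -0.46 (-1.02 to 0.10). In myeloid cells Tnf was at 16.0 CPM in Zfp36-/- (119 UMIs) and 40.1 CPM in WT cells (50 UMIs), a log2 ratio of -1.33 (-1.82 to -0.82). Within cluster 8 it was at 36.7 CPM in Zfp36-/- and 68.2 CPM in WT cells, a ratio of -0.89 (-1.58 to -0.14). In none of these gates was Tnf higher in Zfp36-/- cells by an interval that excludes 0. With clusters as classes it was higher by such an interval in LTi-like ILC3. A relation of the TATTTAT matches to these ratios was not tested.

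Depth, mitochondrial share and immediate-early transcripts also differed between the libraries, in gates with a lower Ltb or Tnf level and in gates without. The median depth of LTi-like ILC3 was 3347 UMIs in Zfp36-/- and 4250.5 UMIs in WT cells, that of NCR+ ILC3 was 5100 in Zfp36-/- and 5387 in WT, that of ILC2 5787 in Zfp36-/- and 6268.5 in WT, and that of ILC1/NK cells 4477.5 in Zfp36-/- and 5071.5 in WT. Median mitochondrial shares were 5.93% in Zfp36-/- and 5.39% in WT LTi-like ILC3, and 6.01% in Zfp36-/- and 5.13% in WT NCR+ ILC3. They were 5.92% in Zfp36-/- and 5.04% in WT ILC2, and 4.23% in Zfp36-/- and 3.61% in WT ILC1/NK cells. The summed level of the 7 immediate-early genes Fos, Fosb, Jun, Junb, Egr1, Dusp1 and Ier2 was 10085 CPM in Zfp36-/- and 13910 CPM in WT NCR+ ILC3, and 13832 CPM in Zfp36-/- and 15503 CPM in WT LTi-like ILC3. It was 8212 CPM in Zfp36-/- and 9721 CPM in WT ILC2, and 9821 CPM in Zfp36-/- and 12231 CPM in WT ILC1/NK cells, whose Ltb ratio was 0.05. The 8 B cell and plasma cell markers summed to 454 CPM in Zfp36-/- and 602 CPM in WT LTi-like ILC3. In myeloid cells they summed to 1375 CPM in Zfp36-/- and 12323 CPM in WT. The part of these values in the Ltb and Tnf ratios was not tested. In cells with Xist and no Y-linked UMI, the ratio of Ltb in LTi-like ILC3 was -0.75 and that of Tnf in NCR+ ILC3 was -0.47.

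**Figure D3:**
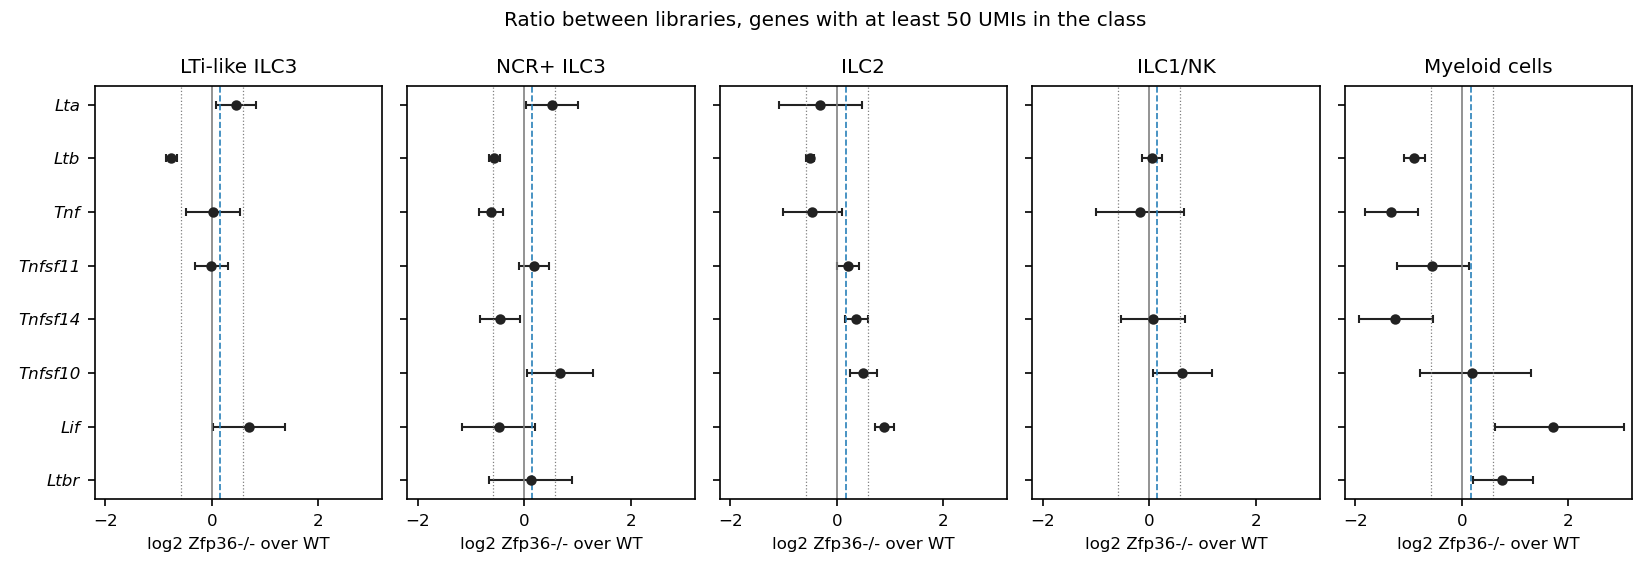
Log2 ratio of Zfp36-/- over WT with its 95% counting interval for each gene with at least 50 UMIs in a class, with 1.5-fold in either direction as dotted lines and the median of all genes as a dashed line. Ltb lies left of 0 in every panel except ILC1/NK, and Lif in ILC2 lies at 0.90.

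Tnfsf11, the RANK ligand gene, had nearly the same level in both libraries in ILC3. LTi-like ILC3 had 160 CPM in Zfp36-/- (173 UMIs) and 161 CPM in WT cells (177 UMIs), with a log2 ratio of -0.01 (-0.32 to 0.30). NCR+ ILC3 had 114 CPM in Zfp36-/- and 101 CPM in WT cells, with a ratio of 0.18 (-0.10 to 0.46). These intervals reach at most 0.46 on the log2 scale, so 1.5-fold lies outside the counting error of these gates. Other gates did not exclude it. With gates of 3 markers the LTi-like ratio was -0.28 and its lower limit -0.77, while the NCR+ limits of -0.50 and 0.21 did exclude it. Gates on thinned cells put the upper limit at 0.59 for LTi-like cells and at 0.85 for NCR+ ILC3, around ratios of 0.11 and 0.41. ILC2 followed with 77.9 CPM in Zfp36-/- and 67.3 CPM in WT cells, a ratio of 0.21 (0.01 to 0.42). It was 0.45 (0.17 to 0.74) within cluster 1, and had the opposite sign within clusters 4 and 5 and with gates on thinned cells, at -0.05, -0.21 and -0.02. The order LTi-like ILC3, NCR+ ILC3, ILC2 was the same in both libraries, and the counting intervals of these 3 classes did not overlap in either. ILC3 without a subset, at 133 CPM in Zfp36-/- and 118 CPM in WT cells, overlapped both ILC3 subsets. ILC1/NK cells had 3 Tnfsf11 UMIs in Zfp36-/- and 9 in WT. At equal depth 54 of 269 Zfp36-/- (20.1%) and 40 of 244 WT (16.4%) LTi-like ILC3 had a Tnfsf11 UMI.

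Tnfsf14 encodes LIGHT, which also binds the lymphotoxin receptor, and its distribution was the reverse of that of Lta among ILC3. NCR+ ILC3 had 52.9 CPM in Zfp36-/- (99 UMIs) and 72.6 CPM in WT cells (148 UMIs), with a log2 ratio of -0.46 (-0.84 to -0.08). LTi-like ILC3 had 12 UMIs in Zfp36-/- and 26 in WT, or 11.1 and 23.6 CPM. LTi-like over NCR+ ILC3 was a log2 difference of -2.26 in Zfp36-/- and -1.62 in WT cells. In ILC2 Tnfsf14 was at 71.2 CPM in Zfp36-/- (540 UMIs) and 55.1 CPM in WT cells (250 UMIs), a ratio of 0.37 (0.15 to 0.59), which was 0.19 when centred on the median of all genes. ILC1/NK cells had 65.5 CPM in Zfp36-/- and 62.5 CPM in WT cells. Myeloid cells had 8.72 CPM in Zfp36-/- and 20.9 CPM in WT cells, a ratio of -1.26 (-1.94 to -0.54), which was -0.22 with Leiden clusters as classes.

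Tnfsf10 encodes TRAIL, a ligand of death receptors, and was highest in ILC1/NK cells, at 98.2 CPM in Zfp36-/- (78 UMIs) and 64.0 CPM in WT cells (45 UMIs). The log2 ratio was 0.62 (0.07 to 1.18) in ILC1/NK cells, and 0.31 without the 5% of cells richest in Tnfsf10. In WT cells the counting intervals of ILC1/NK and ILC2 overlapped. ILC2 had 58.8 CPM in Zfp36-/- (446 UMIs) and 41.7 CPM in WT cells (189 UMIs), a ratio of 0.50 (0.25 to 0.75). It was 0.21 (-0.10 to 0.53) within ILC2 of cluster 1, 1.01 (0.29 to 1.76) within cluster 4 and 0.62 (0.05 to 1.20) within cluster 5. NCR+ ILC3 had 30.5 CPM in Zfp36-/- (57 UMIs) and 19.1 CPM in WT cells (39 UMIs), a ratio of 0.67 (0.06 to 1.30), which was under 1.5-fold at 0.52 when centred on the median of all genes. LTi-like ILC3 had 13 UMIs in Zfp36-/- and 7 in WT. At equal depth 11.3% (9.59 to 13.2) of Zfp36-/- and 7.74% (5.82 to 10.1) of WT ILC2 had a Tnfsf10 UMI.

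Lif, a cytokine that signals through the receptor chains encoded by Lifr and Il6st and is no member of the TNF superfamily, was highest in ILC2 and higher there in the Zfp36-/- library. ILC2 had 144 CPM in Zfp36-/- (1089 UMIs), against 77.2 CPM in WT cells (350 UMIs), a log2 ratio of 0.90 (0.72 to 1.07) and 1.86-fold higher. In WT its counting interval overlapped that of ILC3 without a subset, at 41.6 CPM. The share of ILC2 with a Lif UMI at equal depth was 18.4% (16.2 to 20.7) in Zfp36-/- and 11.4% (9.06 to 14.1) in WT cells, and the mean among positive cells was 1.52 UMIs in Zfp36-/- and 1.40 UMIs in WT. Without thinning the shares were 36.4% in Zfp36-/- and 25.3% in WT ILC2. The ratio was 0.90 (0.64 to 1.16) within cluster 1, 0.90 (0.12 to 1.73) within cluster 4 and 1.27 (0.98 to 1.56) within cluster 5, where the level was 267 CPM in Zfp36-/- and 111 CPM in WT cells. ILC2 held 75.7% of all Lif UMIs of kept Zfp36-/- cells and 63.4% of those of kept WT cells. Plasma cells had 0 thinned cells with a Lif UMI in either library, with the limit of depth given for Ltb.

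In LTi-like ILC3 Lif was at 47.1 CPM in Zfp36-/- (51 UMIs) and 29.1 CPM in WT cells (32 UMIs), a log2 ratio of 0.70 (0.03 to 1.38). A single Zfp36-/- cell held 15 of those UMIs, and the ratio was 0.39 without the richest cell of each library and 0.06 with Leiden clusters as classes. NCR+ ILC3 had 16.6 CPM in Zfp36-/- and 23.1 CPM in WT cells, with a ratio of -0.48 (-1.18 to 0.21), which lay between -1.38 and -1.29 with gates of 3 markers, with gates on thinned cells and without the richest 5% of cells. Myeloid cells had 18.4 CPM in Zfp36-/- (137 UMIs) and 5.62 CPM in WT cells (7 UMIs), a ratio of 1.71 (0.63 to 3.05). ILC1/NK cells held 3 Lif UMIs in Zfp36-/- and 9 in WT.

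**Figure D4:**
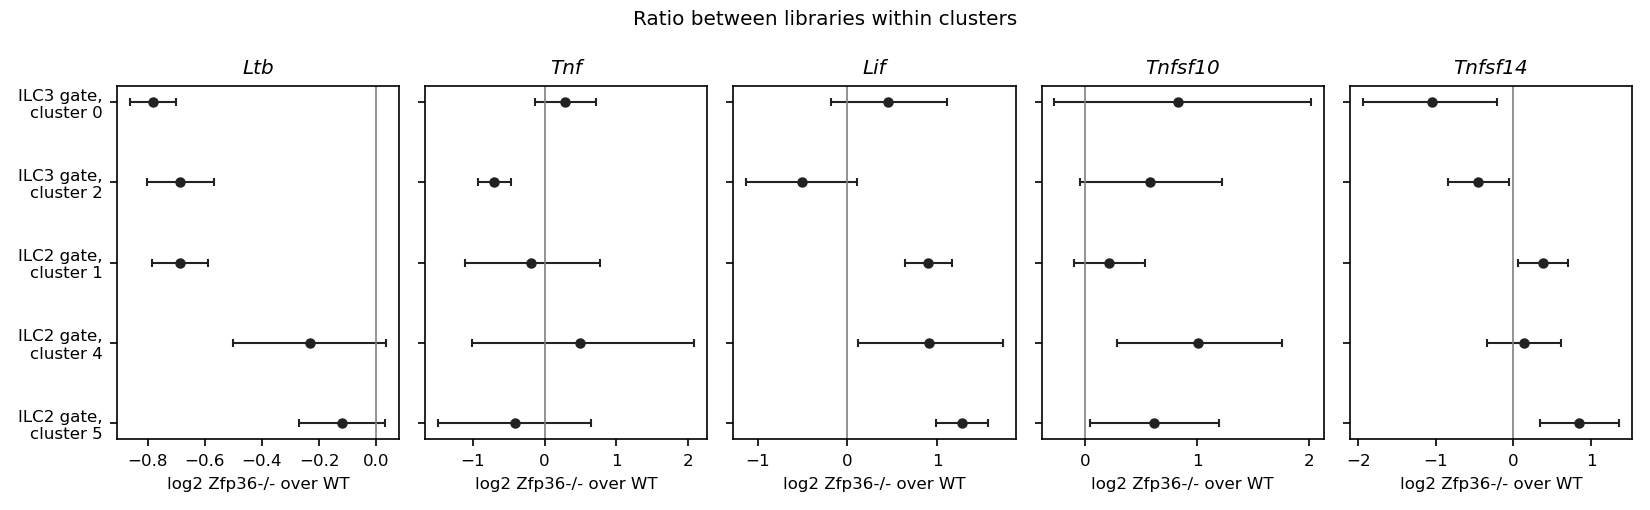
Log2 ratio of Zfp36-/- over WT with its 95% counting interval for gated ILC3 of clusters 0 and 2 and gated ILC2 of clusters 1, 4 and 5. The Lif ratio lies above 0 in all 3 ILC2 clusters, and the Ltb ratio is -0.69 in cluster 1 against -0.12 in cluster 5.

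Counted over the members with at least 50 UMIs in a class, few were past 1.5-fold, and the share of all genes past it was not small. In LTi-like ILC3, 5 of the 8 genes were measured at that depth. Lif was past 1.5-fold higher, as were 18.3% of 6274 genes, and Ltb was past 1.5-fold lower, as were 5.69%. In NCR+ ILC3 all 8 were measured. Tnfsf10 was past 1.5-fold higher, with 15.2% of 7698 genes, and Tnf past 1.5-fold lower, with 4.26%. In ILC3 that met neither subset gate 4 were measured. Of these 0 were higher, with 20.8% of 3565 genes, and Ltb and Tnf were lower, with 6.7%. In ILC2 7 were measured, and Lif was past 1.5-fold higher, with 16.2% of 9316 genes, and 0 members were lower, with 2.99% of genes. In ILC1/NK 4 were measured and Tnfsf10 was higher, with 16.6% of 4564 genes, and 0 were lower, with 4.89% of genes. In myeloid cells 7 were measured. Ltbr and Lif were higher, with 20.2% of 9273 genes, and Ltb, Tnf and Tnfsf14 lower, with 7.17%. The median log2 ratio of the measured members was 0.02 in LTi-like ILC3, -0.17 in NCR+ ILC3, 0.21 in ILC2 and -0.57 in myeloid cells, and that of all genes was 0.16, 0.15, 0.18 and 0.17. The members that passed the UMI minimum are a part of the 8 in all of these classes but NCR+ ILC3.

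Co-detection in LTi-like ILC3 was read at 2000 UMIs, in 269 Zfp36-/- and 244 WT cells, beside the number that independent detection would give. Lta and Tnf were found together in 7 Zfp36-/- cells against 3.77 under independence, and in 4 WT cells against 4.16. Lta and Tnfsf11 were found together in 4 Zfp36-/- cells against 7.03, and in 6 WT cells against 5.74. Tnf and Tnfsf11 were found together in 6 Zfp36-/- cells against 5.82, and in 3 WT cells against 4.75. Of the Lta-positive cells, 30 of 35 Zfp36-/- and 34 of 35 WT cells also held Ltb, the partner that anchors lymphotoxin alpha at the membrane. Of cells without an Lta UMI, 79.9% in Zfp36-/- and 97.1% in WT held Ltb. Ltb and Tnfsf11 were together in 38 Zfp36-/- cells against 43.6 under independence, and in 38 WT cells against 38.9. These counts are small, and none is a test. Apart from Ltb, at least 2 of the 6 other ligand genes were found in 27 Zfp36-/- (10.0%) and 20 WT (8.20%) LTi-like ILC3, in 34 Zfp36-/- (9.44%) and 55 WT (15.5%) NCR+ ILC3, and in 137 Zfp36-/- (11.2%) and 44 WT (6.68%) ILC2.

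**Figure D5:**
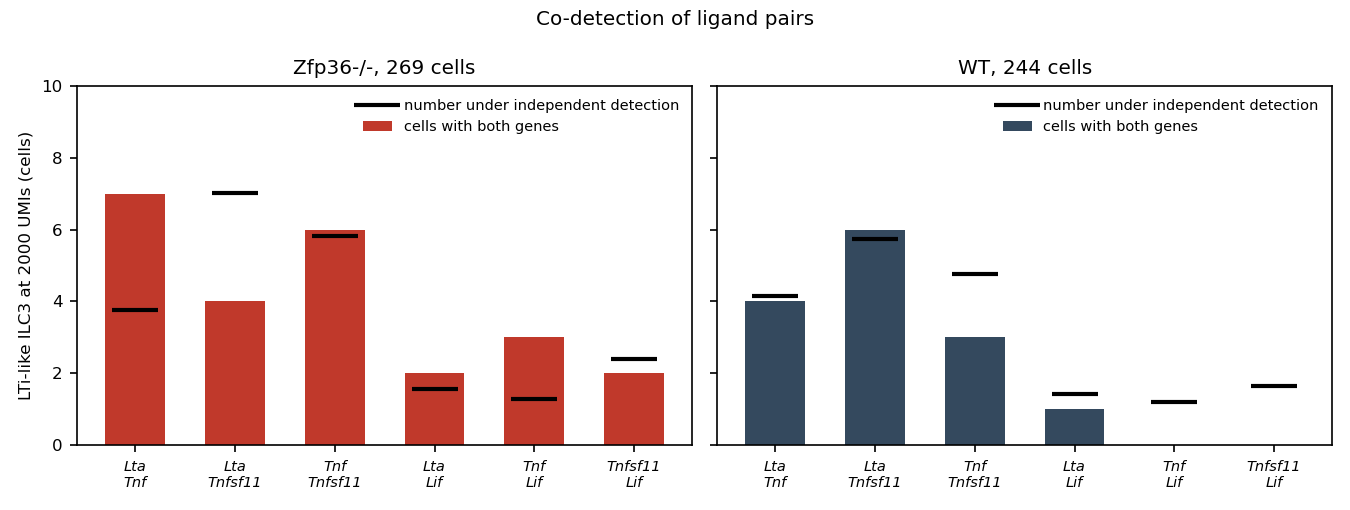
Number of LTi-like ILC3 with UMIs of both genes of a pair after thinning to 2000 UMIs (bars), with Zfp36-/- cells left and WT cells right, and the number that independent detection would give (black marks). In Zfp36-/- cells Lta with Tnf reached 7 against 3.77 and Lta with Tnfsf11 4 against 7.03, and pairs with Ltb are not plotted.

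In the WT library, where the T cell gate was mostly made of T cells, it held 40.4% of all Tnfsf10 UMIs, 27.9% of Tnfsf11, 27.4% of Tnf and 22.8% of Tnfsf14 UMIs of kept cells. The gate itself made up 35.7% of kept WT cells. The WT level in that gate was 452 CPM for Ltb, 53.2 CPM for Tnfsf11, 45.5 CPM for Tnf, 38.9 CPM for Tnfsf10, 25.7 CPM for Tnfsf14, 6.17 CPM for Lta and 5.73 CPM for Lif. The 77 gated Zfp36-/- cells, most of them outside T cell clusters, had 338 CPM of Ltb, 89.5 CPM of Tnfsf11, 29.2 CPM each of Tnf and Tnfsf10, 31.1 CPM each of Tnfsf14 and Lif, and 7.31 CPM of Lta. These are other cells, and no ratio is read from them. These CPM are 3′ tag counts and are not levels per length, so genes are not ranked against each other.

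Other genes of the pathway were taken from 3 lists. Of 13 receptor and decoy genes, 4 were measured in LTi-like ILC3. Of these 0 were past 1.5-fold higher and 1 lower, beside 18.3% and 5.69% of all genes. The lower gene was Tnfrsf11a, which encodes the RANK ligand receptor. It was at 19.4 CPM in Zfp36-/- and 40.9 CPM in WT cells, a log2 ratio of -1.08 (-1.90 to -0.30). In ILC2 7 were measured, with 2 higher and 1 lower, beside 16.2% and 2.99% of all genes. In myeloid cells 7 were measured, with 0 higher and 2 lower, beside 20.2% and 7.17% of all genes. Tnfrsf10b, the mouse TRAIL receptor gene, was lower in ILC2 with 8.04 CPM in Zfp36-/- and 17.0 CPM in WT cells, a ratio of -1.08 (-1.59 to -0.57). Il6st, the signalling chain used by Lif, was higher in ILC2 with 14.5 CPM in Zfp36-/- and 9.48 CPM in WT cells. Cd160, a ligand of the LIGHT receptor, was higher in ILC2 with 203 CPM in Zfp36-/- and 134 CPM in WT cells, and lower in myeloid cells with 21.3 CPM in Zfp36-/- and 65.0 CPM in WT cells. Among these gates Lifr reached 50 UMIs in myeloid cells only, at 16.8 CPM in Zfp36-/- and 16.1 CPM in WT cells.

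Of 12 other TNF superfamily ligands, 2 were measured in LTi-like ILC3, 3 in each of NCR+ ILC3 and ILC2, and 4 in myeloid cells. In LTi-like ILC3 0 were past 1.5-fold higher and 1 lower, beside 18.3% and 5.69% of all genes. In NCR+ ILC3 0 were higher and 1 lower, beside 15.2% and 4.26%. In ILC2 1 was higher and 0 lower, beside 16.2% and 2.99%. In myeloid cells 0 were higher and 2 lower, beside 20.2% and 7.17%. Tnfsf8, which encodes CD30 ligand, had 66.5 CPM in Zfp36-/- and 107 CPM in WT LTi-like ILC3, a log2 ratio of -0.69 (-1.13 to -0.25). Tnfsf9, which encodes 4-1BB ligand, had 7.49 CPM in Zfp36-/- and 26.0 CPM in WT NCR+ ILC3, a ratio of -1.80 (-2.76 to -0.93), and 8.99 CPM in Zfp36-/- and 56.2 CPM in WT myeloid cells.

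Of 19 genes of the NF-kB arms that act downstream of these receptors, 17 were measured in LTi-like ILC3, with 4 past 1.5-fold higher and 1 lower, beside 18.3% of all genes higher and 5.69% lower, so neither share stands far from that of all genes. Their median log2 ratio was 0.08, beside 0.16 for all genes. Rel, an NF-kB subunit, was at 159 CPM in Zfp36-/- and 68.1 CPM in WT LTi-like ILC3, a ratio of 1.22 (0.82 to 1.63), and at 194 CPM in Zfp36-/- and 121 CPM in WT NCR+ ILC3. Ripk1, Traf3 and Ikbkb were the others higher in LTi-like ILC3, with ratios of 1.21, 0.79 and 0.70. Nfkbia, the NF-kB inhibitor and target gene, was lower in both subsets, at 1248 CPM in Zfp36-/- and 1941 CPM in WT LTi-like ILC3 and at 1301 CPM in Zfp36-/- and 2521 CPM in WT NCR+ ILC3. In ILC1/NK cells Nfkbia had 2137 CPM in Zfp36-/- and 2030 CPM in WT cells, and in ILC2 1412 CPM in Zfp36-/- and 1830 CPM in WT cells. Myeloid cells had 531 CPM of Nfkbia in Zfp36-/- and 842 CPM in WT cells. A relation of Nfkbia to the ligand genes was not tested. In NCR+ ILC3 18 of the 19 were measured, with 2 higher and 1 lower, beside 15.2% and 4.26% of all genes. In ILC2 all 19 were measured, with Chuk and Ripk1 higher and 0 lower, beside 16.2% and 2.99% of all genes. In ILC1/NK 16 were measured, with 1 higher and 0 lower, beside 16.6% and 4.89% of all genes. In myeloid cells all 19 were measured, with 4 higher and 3 lower, beside 20.2% and 7.17% of all genes.

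Genes most like a member were those with the highest Pearson correlation of log2(CPM + 10) over 16 points, the 8 gates of both libraries, among 9774 genes. The points share 2 libraries, and the values describe the cell classes. For Lta these were P2ry1 (r = 0.98), Prss12 (0.98) and Ptger2 (0.97). For Ltb they were Sdhaf1, Dad1 and Rab21 (0.97 each). For Tnf they were Serpinb1a (0.97), Rbpms2 (0.96) and Gng2 (0.95), and for Tnfsf11 Gstp3 (0.96), Ppp1r3f (0.95) and A630089N07Rik (0.94). For Tnfsf10 they were Cst7 (0.97), Rcn1 and Trdv4 (0.94 each), and for Tnfsf14 Ctsd and Csf2 (0.94 each) and Pglyrp2 (0.93). For Lif they were Lyrm4 (0.91), Npnt and Deptor (0.89 each), and for Ltbr Grk3, Tubb6 and Colgalt1 (0.94 each).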

How the data were processed

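Cells of 4 mice per genotype were pooled and captured with a 10x Genomics 3′ kit, per the labels' protocols. The authors deposited raw UMI counts per gene and barcode, made with Cell Ranger on mm10 per the submitters' processing notes, with version 3.1.0 per the file headers. The 2 matrices were used as deposited. Cells with at least 500 genes and at most 10% mitochondrial UMIs were kept. Scrublet, as run in Scanpy, marked 5 Zfp36-/- (0.150%) and 37 WT (1.09%) barcodes as doublets, and these were removed. Doublets may remain, and their part in the results was not tested.

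A cell was gated from distinct markers with a UMI, at least 2 for ILC and T cell gates, 3 for myeloid and 4 for B and plasma cells. Markers found in over 50% of the cells of either library did not count. Of the 556 Zfp36-/- and 498 WT cells left unassigned, 415 in Zfp36-/- and 261 in WT met no gate, 114 in Zfp36-/- and 139 in WT met ILC gates that their marker counts did not separate, and 27 in Zfp36-/- and 98 in WT met several of the B and plasma, myeloid and T cell gates. UMIs were summed per gate and given as CPM with exact Poisson intervals, ratios with exact binomial-split intervals, and shares with Clopper-Pearson intervals, all at 95% and covering counting error only. Shares were read after thinning each cell to 2000 UMIs with 1 seed, which left out 4.56% of Zfp36-/- and 2.38% of WT cells. A count of 0 was taken to allow 3. A gene with at least 50 UMIs over both libraries in a gate was called at 1.5-fold. Clusters used Scanpy 1.11.5 and leidenalg 0.10.2 with 2000 variable genes, 30 components and 15 neighbours. The ratio and its interval were tested on simulated data.

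The genes, marker lists and pathway lists were chosen with earlier results of these data known. Pathway genes are named past 1.5-fold with an interval excluding 0 and at least 50 UMIs. Not all genes that met this rule are named. Other named pathway values were chosen after they were seen, as were the immediate-early genes. The 3 genes most like each member were taken by correlation among genes with at least 200 UMIs outside the gate lists. Sequences and gene positions came from GENCODE M21, in which 30934 of 31053 genes matched. Alternatives were the settings given with the results' dependence on processing. No test between genotypes was made, with 1 library each.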

Additional observations from a re-analysis of the deposited data

Results flagged for a closer look

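Tnfsf14 went in opposite directions in different classes. Its log2 ratio of Zfp36-/- over WT was 0.37 in ILC2, against -0.46 in NCR+ ILC3 and -1.26 in myeloid cells, and each counting interval excluded 0. The difference between these classes was not tested, since each genotype had 1 library. The direction was the same within each of the 3 ILC2 clusters. The ratio was 0.37 (0.06 to 0.70) in cluster 1, 0.14 (-0.34 to 0.62) in cluster 4 and 0.85 (0.35 to 1.36) in cluster 5. The median of all genes in ILC2 was 0.18. In myeloid cells the ratio was -0.73 (-1.78 to 0.49) within cluster 8 and -0.22 with Leiden clusters as classes.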

How the results depend on the processing

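Over 31 log2 ratios, 356 values came from alternative settings, of which 305 stayed within the interval of the ratio, 44 lay outside it, and 7 changed the sign of a ratio whose interval excluded 0. These were Lta in LTi-like ILC3 (-0.094 with gates on thinned cells and -0.056 without the richest 5% of cells), Lta in NCR+ ILC3 (-0.43 without the richest 5%), Tnfsf11 in ILC2 (-0.020 with gates on thinned cells, -0.049 in cluster 4 and -0.21 in cluster 5) and Ltbr in myeloid cells (-0.12 in cluster 8). Their cause was not tested. Of the 44 values outside the interval, 14 belonged to the ratios of Ltb and Lif in ILC2, Ltb in both ILC3 subsets, Tnf in NCR+ ILC3 and Tnfsf10 in ILC2, and kept their direction. Centring on the median of all genes gave -0.92 for Ltb in LTi-like ILC3, -0.71 in NCR+ ILC3 and -0.69 in ILC2, and 0.72 for Lif in ILC2. Leaving out the richest 5% of cells gave -0.97 for Tnf in NCR+ ILC3 and 1.09 for Lif in ILC2. Ltb in ILC2 was -0.42 with Leiden clusters as classes, -0.59 without ribosomal and mitochondrial UMIs, and -0.69, -0.23 and -0.12 in clusters 1, 4 and 5. Tnfsf10 in ILC2 was 0.21 in cluster 1 and 1.01 in cluster 4, and Lif in ILC2 was 1.27 in cluster 5. The other 30 belonged to further ratios. With gates of 3 markers Lta in NCR+ ILC3 was 1.37, Lif in NCR+ ILC3 -1.38 and Tnfsf11 in NCR+ ILC3 -0.14. With gates on thinned cells Lta in NCR+ ILC3 was 0.028, Lif in NCR+ ILC3 -1.36 and Ltb in ILC1/NK -0.13. Without the richest 5% of cells Lif in NCR+ ILC3 was -1.29 and Tnfsf14 in ILC1/NK -0.58. With Leiden clusters as classes Tnf in LTi-like ILC3 was 0.57 and Ltb in ILC1/NK 0.39. Within ILC2, Tnfsf11 was 0.45 in cluster 1, Tnfsf14 0.14 in cluster 4 and 0.85 in cluster 5, Tnf 0.49 in cluster 4 and Lta 0.67 in cluster 5. The rest were in myeloid cells, where Ltb lay between -1.19 and -0.080, Tnf was -0.81 with gates of 3 markers and -0.73 with gates on thinned cells, and Lif was 3.11 with Leiden clusters as classes and 3.27 with gates on thinned cells. Tnfsf11 was -1.42 and Tnfsf10 1.62 in myeloid cells of cluster 8, Tnfsf10 was 1.84 with gates on thinned cells and -1.12 with equal weight per cell, and Tnfsf14 was -0.22 with Leiden clusters as classes. The cluster settings and the removal of the single richest cell were chosen after seeing the data. Over all settings Ltb in LTi-like ILC3 lay between -0.92 and -0.69. Tnf in NCR+ ILC3 was within 1.5-fold, at -0.46 with gates of 3 markers and at -0.47 in cells with Xist and no Y-linked UMI.

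The number of genes past 1.5-fold was 1508 in LTi-like ILC3, 1501 in NCR+ ILC3 and 1786 in ILC2. A minimum of 20 UMIs gave 2463 in LTi-like ILC3, a minimum of 200 UMIs gave 362, 525 and 1028 in these gates, and 2-fold gave 333, 306 and 372. No paired analysis was possible because each genotype had 1 library. Depth limits Ltbr in ILCs, Tnfsf14 and Tnfsf10 in LTi-like ILC3 and Lta outside ILC3, which had under 50 UMIs in most of these gates.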

Other observations

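Unassigned cells, 556 in Zfp36-/- and 498 in WT, held 17.2% of all Lta UMIs of kept Zfp36-/- cells and 21.3% of those of kept WT cells. They held 17.0% of Ltb UMIs in Zfp36-/- and 20.2% in WT, and 6.07% of Ltbr UMIs in Zfp36-/- and 25.2% in WT. The cells among them that met no gate, 415 in Zfp36-/- and 261 in WT, held 12.1% of Lta UMIs in Zfp36-/- and 15.4% in WT, and 12.3% of Ltb UMIs in Zfp36-/- and 13.0% in WT. Myeloid cells held 70.8% of Ltbr UMIs in Zfp36-/- and 20.4% in WT, and made up 376 of 3334 kept Zfp36-/- cells and 98 of 3360 kept WT cells.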
